A study of Mus musculus with 6 samples.

Results

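The interleukins are the secreted messengers through which immune, epithelial and stromal cells act on each other, and this account covers them and their receptors in the large intestine of mice with inflammatory bowel disease (IBD). Every row of the deposited gene table whose symbol starts with Il and a number was taken, which gave 85 of 35434 symbols. They are 38 ligands, 38 receptor chains, 6 antagonists, decoys and binding proteins, and 3 other loci (Il4i1, Il4i1b and the antisense RNA Il1bos). RNA of 6 large intestine samples was sequenced, 3 titled int 3 and 3 titled int 2. The study's mice received either Tregs treated with lenvatinib, an inhibitor of several receptor tyrosine kinases, or control Tregs, where Tregs are regulatory T cells. The labels do not say which of the titles int 3 and int 2 stands for which transfer, so neither title is tied to a transfer, and every difference is int 3 minus int 2. The mouse strain, sex, age, the way the disease was induced and the time of sampling are not given in the sources used here. Whether each library stands for its own mouse is not stated either. The p-values therefore measure only the spread between these libraries, which may be technical.

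Most interleukins bind a private receptor chain that is joined by a shared one. IL-1 family cytokines signal through paired receptors and MyD88, and soluble antagonists and decoys such as Il1rn, Il1r2 and Il18bp hold them in check. Cytokines of the common gamma chain (Il2rg), of gp130 (Il6st) and of the IL-10 family signal through JAK kinases and STAT factors. In the gut, epithelial cells are a large store of IL-18 and a main target of IL-22, and IL-22 is bound by the soluble protein Il22ra2.

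The libraries held 34 to 35.1 M (mega, the SI prefix) fragments each, as recovered from the steps in the FPKM values (fragments per kilobase of transcript, scaled to a fixed library size). Markers of epithelium (summed 2426 to 3023 FPKM in int 3 and 2737 to 2767 in int 2) and of smooth muscle (2109 to 2500 and 2588 to 2609 FPKM) were high in all 6 libraries. Values of single libraries are given below in the order of their numbers, for example int 3-1, int 3-2 and int 3-3. The int 3 libraries lay far apart and the int 2 libraries close together. Over the tested interleukin genes the SD of the log2 difference between a pair of libraries was 0.346 to 0.681 in int 3 and 0.112 to 0.146 in int 2. The library int 3-1 was set against the mean of int 3-2 and int 3-3. Its value was within 10% of that mean for 21 of the 31 tested interleukin genes (67.7%), against 81.7% of all tested genes. Of the 8 tested interleukin genes whose FPKM + 1 in int 3-2 and int 3-3 lay 1.5-fold or more apart, 7 (87.5%) had int 3-1 that close, against 75.1% of the 1983 such genes in the whole table. Hoxb13, whose expression marks the distal end of the gut, had 146 FPKM in int 3-1, 16.4 in int 3-2 and 267 in int 3-3, whereas the int 2 libraries had 285 to 288. Of the other distal markers Hoxd13 had 14.2, 0.286 and 26.4 FPKM in int 3, against 9.8 to 11.1 in int 2. Int 3-1 and int 3-3 thus lay below int 2 in Hoxb13 and above it in Hoxd13. Hoxa13 (10.1 to 15.3 FPKM in int 3 and 10.5 to 11.7 in int 2) and the low Hoxd12 (0.0116 to 0.574 and 0.275 to 0.357) overlapped. The int 3 libraries thus also differed in markers of position along the gut. Fewer cells of a type and less RNA per cell cannot be told apart in such tissue RNA.

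Sequences are shown first for 5 members whose windows before the transcription start hold letters of known inflammatory or cytokine response motifs, so that members that moved in different ways can be set side by side. The windows are the 250 bases before a RefSeq start in the build GRCm38.p6, which is not the build of the deposited table, and are written 5′ to 3′ with the matches in capitals. The motifs searched, on both strands, were GGG, any pair of bases, then TTTCC (kappaB), TGANTCA (AP-1), TTCNNNGAA (STAT), and GAAA, any pair of bases, then GAAA (interferon response). No 2 matches overlap in the windows shown.
Il6, chr5:30012864-30013113, plus strand: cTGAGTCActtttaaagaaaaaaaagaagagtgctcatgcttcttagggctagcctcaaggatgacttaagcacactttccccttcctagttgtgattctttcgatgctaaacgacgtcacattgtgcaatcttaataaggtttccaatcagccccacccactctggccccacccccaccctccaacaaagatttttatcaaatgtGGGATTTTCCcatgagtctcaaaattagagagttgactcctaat
Il1rn, chr2:24345121-24345370, plus strand: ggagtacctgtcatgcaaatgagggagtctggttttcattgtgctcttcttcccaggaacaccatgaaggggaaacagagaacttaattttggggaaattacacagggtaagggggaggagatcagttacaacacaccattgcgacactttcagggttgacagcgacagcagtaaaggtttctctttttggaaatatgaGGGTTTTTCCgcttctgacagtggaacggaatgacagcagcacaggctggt
Il16, chr7:83655496-83655745, minus strand: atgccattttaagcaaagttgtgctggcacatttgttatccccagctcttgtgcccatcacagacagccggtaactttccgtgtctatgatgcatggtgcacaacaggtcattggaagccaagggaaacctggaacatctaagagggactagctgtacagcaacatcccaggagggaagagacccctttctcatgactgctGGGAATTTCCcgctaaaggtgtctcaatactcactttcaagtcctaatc
Il11, chr7:4778142-4778391, minus strand: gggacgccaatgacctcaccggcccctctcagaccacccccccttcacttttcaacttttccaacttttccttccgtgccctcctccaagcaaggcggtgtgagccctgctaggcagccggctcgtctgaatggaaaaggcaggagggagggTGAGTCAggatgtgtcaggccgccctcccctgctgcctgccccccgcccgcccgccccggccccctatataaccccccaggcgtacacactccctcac
Il7r, chr15:9529877-9530126, minus strand: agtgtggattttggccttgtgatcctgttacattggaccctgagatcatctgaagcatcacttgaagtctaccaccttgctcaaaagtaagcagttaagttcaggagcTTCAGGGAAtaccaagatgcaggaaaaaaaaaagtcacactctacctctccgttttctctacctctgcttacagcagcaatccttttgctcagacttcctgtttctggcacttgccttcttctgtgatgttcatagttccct

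Il6 holds the kappaB letters GGGATTTTCC from 44 to 35 bases before its start and an AP-1 match at 249 to 243. The kappaB letters stand at 51 to 42 bases in Il1rn and at 49 to 40 in Il16. Il11 has an AP-1 match at 98 to 92 bases and Il7r a STAT match at 142 to 134. Il1rn and Il16 have 3 starts each and Il11 has 2, and 1 window with a match is shown for each gene. Of the windows not shown, 1 of Il1rn and 1 of Il16 hold an AP-1 match, and the rest hold no match. Promoter windows were at hand for 64 of the 85 members (78 starts). The kappaB letters were found in 6 of these 78 windows (Il6, Il1rn, Il16, Il17rc, Il23r and Il9) and in 1.41% of all 32851 windows in the table, and AP-1 letters in 13 and 6.75%. STAT letters were in 7 and in 7.02%, and the interferon response letters in 2 (Il19 and Il4) and in 2.98%. A kappaB match thus stands before Il6 and Il16, which lay on opposite sides of int 2 in int 3, and before Il17rc, whose groups overlapped.

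Of the 85 members 31 reached 1 FPKM in at least 3 libraries and were tested. In limma's test 15 of them changed (Benjamini-Hochberg adjusted p under 0.05 over all tested genes), 7 higher and 8 lower in int 3. Of all genes tested 15.3% changed, 8.64% higher and 6.7% lower. The 31 are not all members, and 5 of them passed the filter through 1 group alone (Il11, Il1rl1 and Il18bp through int 3, Il7r and Il27ra through int 2), which had to set them apart. The groups did not overlap for 22 of the 31, against 40.4% of all tested genes. The median log2 change of the 31 was 0.02 and that of all tested genes 0.03. Scaled as TPM, 8 rose and 6 fell, and the share of higher genes among all calls was 67.7% against 56.3% in FPKM. That share was 51.4% with median-of-ratios scaling and with voom, and 48.5% with quantile scaling.

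**Figure D1:**
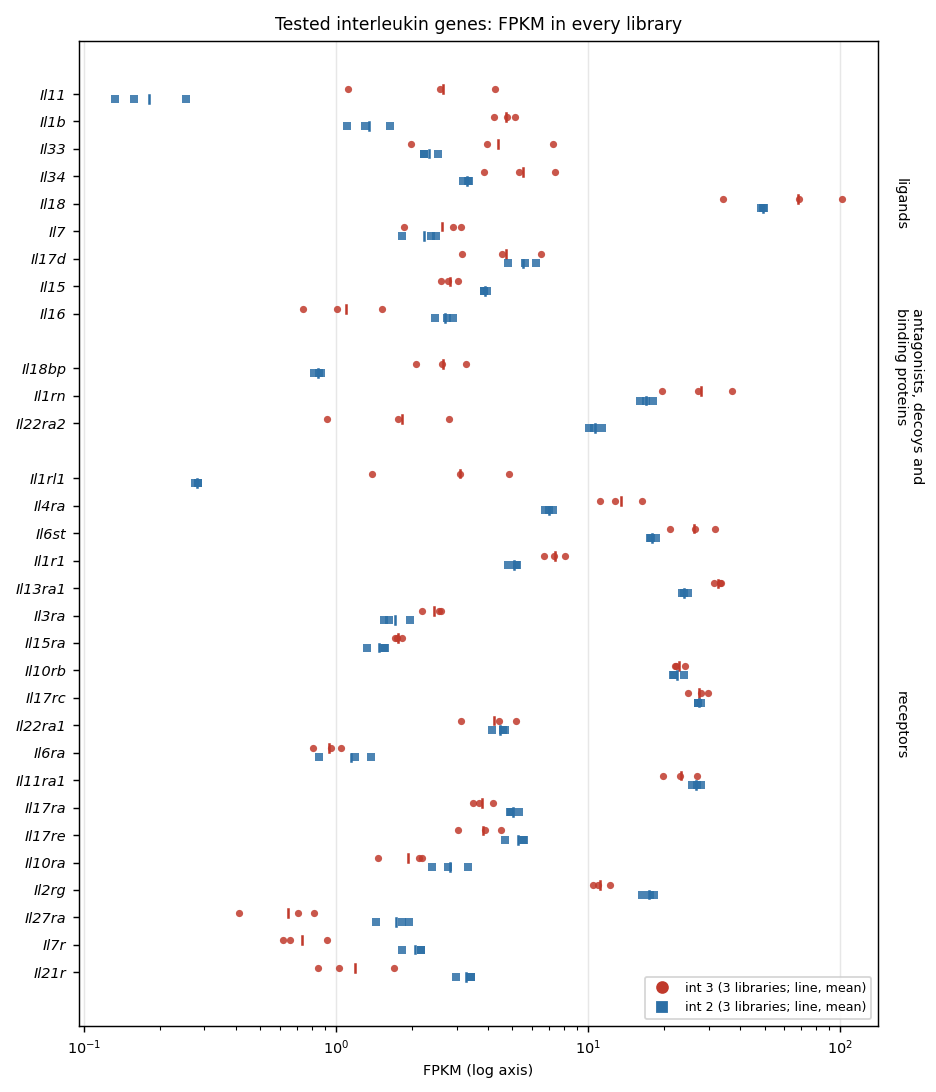
FPKM of the 31 tested interleukin genes in each of the 6 libraries on a log axis, with int 3 (circles) above int 2 (squares) in each row and a line at the group mean. Il18 stands highest in both groups, int 2 libraries lie close together in nearly every row, and Il22ra2 and Il1rl1 lie far apart between the groups in opposite directions.

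By level, Il18 led both groups, with 67.9 ± 33.2 FPKM in int 3 and 49.1 ± 0.858 in int 2 (SD, n = 3 libraries each). After it int 3 had Il13ra1 (32.8), Il1rn (28), Il17rc (27.5), Il6st (26.4), Il11ra1 (23.2) and Il10rb (22.8), and each overlapped with the next in this order. In int 2 the order after Il18 was Il17rc (27.6) and Il11ra1 (26.8), with overlapping ranges, then Il13ra1 (24.1) and Il10rb (22.5), also overlapping, and then Il6st (17.9), Il2rg (17.4) and Il1rn (17). Il22ra2 was the ninth member in int 2 at 10.6 FPKM and stood at 1.83 in int 3. Ligands were scarce. In int 3 only Il18 of the 38 ligands reached a mean of 10 FPKM, 9 reached 1 FPKM and 21 were under 0.1, and in int 2 these numbers were 1, 8 and 27. Of the 38 receptor chains 7 reached a mean of 10 FPKM in int 3 and 6 in int 2.

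Among the 9 tested ligands 2 rose (Il11 and Il1b), 2 fell (Il16 and Il15) and 5 did not pass. Il1b, the myeloid cytokine that caspase-1 releases from its precursor, had 4.75, 5.12 and 4.23 FPKM in the int 3 libraries, against 1.3, 1.63 and 1.1 in the int 2 libraries. The 3 int 3 libraries were close to each other and all above int 2. Its mean was 3.5 times higher (log2 change 1.29, SE 0.11, adjusted p = 0.0013 in limma), and it passed without each library in turn (highest adjusted p 0.015). Il11, a gp130 cytokine that stromal cells make in the inflamed gut, had 2.57, 4.26 and 1.11 FPKM in int 3, against 0.133, 0.253 and 0.158 in int 2. Every int 3 library was above int 2, but int 3-2 was far above int 3-3. The mean was 14.6 times higher (log2 change 1.53, SE 0.31, adjusted p = 0.024). Il11 passed the filter through int 3 alone.

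Il16, a precursor in lymphocytes whose released part attracts CD4+ cells, had 1.01, 0.736 and 1.52 FPKM in int 3, against 2.76, 2.9 and 2.46 in int 2. All int 3 libraries were below int 2 (log2 change -0.84, SE 0.14, adjusted p = 0.014 in limma). Il15, which maintains NK cells and CD8+ T cells, had 3.05, 2.78 and 2.61 FPKM in int 3 and 3.84, 3.85 and 3.98 in int 2 (log2 change -0.36, SE 0.07, adjusted p = 0.019), a small but non-overlapping difference. Stard5 lies on the strand opposite to Il16 with 1202 exonic bases in common in GENCODE M21 (GRCm38). Stard5 had 13.9 to 19.2 FPKM in int 3 and 13 to 14.5 in int 2, and did not pass (adjusted p = 0.18). Whether strand was used in counting is not given in the sources used here, so fragments of Il16 and Stard5 in that stretch cannot be told apart. Without int 3-1, or without any 1 library of int 2, Il11 (adjusted p = 0.093 to 0.1), Il16 (0.056 to 0.075) and Il15 (0.051 to 0.098) no longer passed. Il11 also missed the threshold without a filter (0.055), Il16 with the replicate number as a block (0.056) and Il15 with that block (0.08) and with TPM (0.051).

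The other 5 tested ligands were split by library within int 3. Il18, the IL-1 family cytokine stored in gut epithelium, had 68.7, 34.3 and 101 FPKM in the int 3 libraries, against 49.8, 49.4 and 48.2 in int 2. One int 3 library was below int 2 and the others were above it (log2 change 0.33, SE 0.36, adjusted p = 0.56 in limma). Without int 3-2 Il18 passed (0.016), and without int 3-3 its difference turned to -0.02 on the log2 scale. Il34, a ligand of the macrophage growth factor receptor Csf1r, ran in the same order as Il18, with 5.32, 3.84 and 7.38 FPKM against 3.34, 3.37 and 3.18 in int 2 (log2 change 0.56, adjusted p = 0.1, and 0.0077 without int 3-2). Il33, an alarm cytokine held in the nucleus of stromal and endothelial cells, ran in the opposite order, with 3.96, 7.26 and 1.98 FPKM against 2.23, 2.23 and 2.53 in int 2 (log2 change 0.58, adjusted p = 0.3, and 0.016 without int 3-3). Summed markers of endothelium were also highest in int 3-2, with 58.8 FPKM in int 3-1, 81.3 in int 3-2 and 39.3 in int 3-3. In int 2 they had 33.3 to 34.4 FPKM, and of the 4 tested only Vwf passed. Fibroblast markers summed to 350, 383 and 321 FPKM in int 3 against 286 to 289 in int 2. Of these Pdgfra, Col1a1 and Col3a1 rose and Dcn did not pass, and Pdgfra was lowest in int 3-2. The part of either list in the Il33 values was not tested. Il17d, an IL-17 family member, had 4.54, 6.46 and 3.15 FPKM against 5.59, 6.18 and 4.82, and Il7, a lymphocyte survival factor, 2.91, 1.85 and 3.13 against 2.37, 2.48 and 1.83. Both overlapped between the groups (adjusted p = 0.5 for Il17d and 0.54 for Il7).

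**Figure D2:**
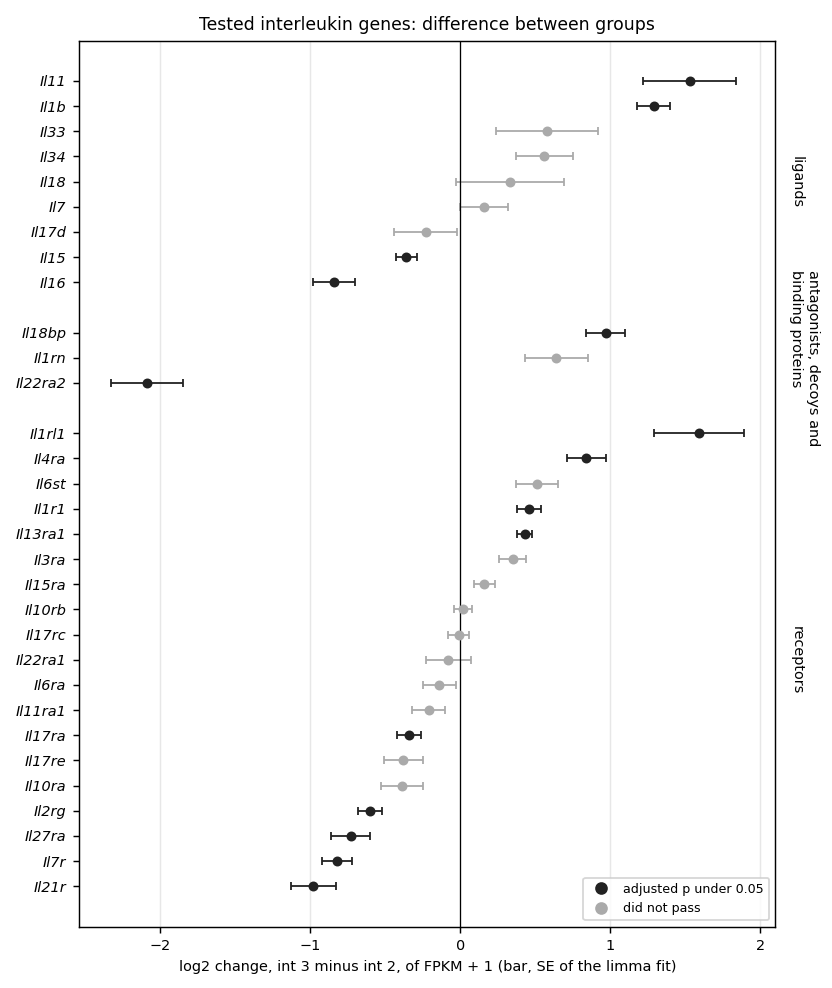
Log2 change of FPKM + 1, int 3 minus int 2, with the SE of the limma fit for the 31 tested interleukin genes, black where the adjusted p was under 0.05 and grey where it was not. The changes run from -2.09 for Il22ra2 to 1.59 for Il1rl1, and the uncertain ligands Il18 and Il33 carry the widest bars.

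The soluble regulators gave both the largest fall and a rise. Il22ra2, the soluble binding protein that keeps IL-22 from its receptor, had 1.76, 0.917 and 2.81 FPKM in the int 3 libraries, against 10.5, 11.3 and 10.1 in the int 2 libraries. The int 3 mean was 0.172 of the int 2 mean, and the groups were far apart (log2 change -2.09, SE 0.24, adjusted p = 0.0036 in limma). Behind these values stood 148, 77 and 243 fragments in int 3 and 888, 957 and 853 in int 2. Il18bp, the secreted binder of IL-18, had 2.63, 2.07 and 3.26 FPKM in int 3, against 0.817, 0.857 and 0.87 in int 2. The mean was 3.13 times higher (log2 change 0.97, SE 0.13, adjusted p = 0.0056). Both genes passed without each library in turn (highest adjusted p 0.029 for Il22ra2 and 0.039 for Il18bp). Il18bp passed the filter through int 3 alone, which had to set it apart, and the filter was not redone when a library was left out. In GENCODE M21 Il18bp has 80 exonic bases in common with Numa1 on the opposite strand. Numa1 had 10.9 to 14 FPKM in int 3 and 12.6 to 13.1 in int 2, and overlapped between the groups. With the use of strand not given, fragments of Il18bp and Numa1 in that stretch cannot be told apart.

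Il1rn, the antagonist that occupies the IL-1 receptor, had 27.3, 19.6 and 37.3 FPKM in the int 3 libraries, against 16, 18 and 17 in int 2. All int 3 libraries were above int 2, but they spread widely and the gene did not pass (log2 change 0.64, SE 0.21, adjusted p = 0.095 in limma, and 0.0058 without int 3-2, 0.049 without int 3-3 and 0.043 with a weight per group). The antagonist stood above the cytokine in both groups, at a mean of 28 FPKM for Il1rn and 4.7 for Il1b in int 3 and at 17 and 1.34 in int 2. The IL-1 decoy Il1r2 was under the filter, with 0.678, 0.812 and 0.724 FPKM in int 3 and 0.316, 0.304 and 0.24 in int 2, and the decoy Il13ra2 overlapped between the groups. Il36rn was listed at 0.

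Of 19 tested receptor chains 4 rose, 5 fell and 10 did not pass. Il1rl1 encodes ST2, the receptor of IL-33 on mast cells, type 2 innate lymphoid cells and, in mice, many colonic Tregs, and it is also released as a soluble decoy. It had 3.1, 4.83 and 1.39 FPKM in the int 3 libraries, against 0.282, 0.276 and 0.283 in the int 2 libraries. The int 2 libraries were nearly identical and every int 3 library was above them, in the same order as Il33 and Il11. The mean was 11.1 times higher (log2 change 1.59, SE 0.30, adjusted p = 0.02 in limma). The table gives 1 value per gene, so the membrane and soluble forms of Il1rl1 are not separated. Mast cell markers summed to 8.93 to 14.3 FPKM in int 3 and 10.5 to 10.8 in int 2 with 0 of 1 tested member changed, Kit making up most of each sum. The mast cell proteases Mcpt1 and Mcpt2 were under the filter. Mcpt1 had 1.57, 0.715 and 2 FPKM in int 3 against 0.454, 0.254 and 0.142 in int 2, without overlap. Mcpt2 had 0.337, 0.169 and 1.27 against 0.096, 0.167 and 0.0481, but int 3-2 and int 2-2 held 7 fragments each. Within int 3 both were lowest in int 3-2, where Il1rl1 was highest. Cpa3 and Fcer1a were under the filter and overlapped between the groups. Gata3, a factor of type 2 innate lymphoid cells and T cells, stood at 0.109 to 0.367 and 0.343 to 0.474 FPKM. Their part in the Il1rl1 values was not tested.

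Il4ra and Il13ra1, which pair as a receptor for IL-4 and IL-13, were both higher, while Il2rg, the other partner of Il4ra, fell. Il4ra, shared by both cytokines, had 12.8, 16.4 and 11.1 FPKM in int 3, against 6.97, 7.26 and 6.73 in int 2 (log2 change 0.84, SE 0.13, adjusted p = 0.011 in limma). Il13ra1, its partner on cells other than lymphocytes, had 33.2, 33.7 and 31.4 FPKM, against 23.9, 23.5 and 24.8 (log2 change 0.43, SE 0.05, adjusted p = 0.004). Their ligands were nearly undetected, with 0 fragments of Il4 and of Il13 in every int 3 library and 1, 0 and 1 of Il4 and 0, 3 and 1 of Il13 in the int 2 libraries, where 0 fragments allow up to 3. Il1r1, the signalling receptor of IL-1, had 7.32, 8.06 and 6.68 FPKM in int 3 and 4.81, 5.18 and 5.19 in int 2 (log2 change 0.46, SE 0.08, adjusted p = 0.013). Its accessory chain Il1rap, at 0.665 to 0.812 and 0.702 to 0.883 FPKM, overlapped between the groups and was under the filter.

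The 5 chains that fell were Il2rg, Il7r, Il21r, Il27ra and Il17ra. Il2rg, the common gamma chain, had 10.9, 10.4 and 12.2 FPKM in the int 3 libraries, against 18.3, 16.3 and 17.6 in the int 2 libraries (log2 change -0.60, SE 0.08, adjusted p = 0.0051 in limma). Il7r, the IL-7 receptor of naive and memory T cells and innate lymphoid cells, had 0.655, 0.614 and 0.918 FPKM, against 2.16, 1.83 and 2.17 (log2 change -0.82, SE 0.10, adjusted p = 0.0043). Both were low in every int 3 library. Il21r, the IL-21 receptor of B and T cells, had 1.03, 0.843 and 1.7 FPKM, against 3.41, 3.42 and 2.98 (log2 change -0.98, SE 0.15, adjusted p = 0.0096). Il27ra, the IL-27 receptor of T cells, had 0.708, 0.412 and 0.819 FPKM, against 1.44, 1.82 and 1.94 (log2 change -0.73, SE 0.13, adjusted p = 0.014), and Il17ra, the common chain of IL-17 receptors, 3.67, 3.49 and 4.19 against 4.87, 4.93 and 5.31 (log2 change -0.34, SE 0.08, adjusted p = 0.034). For all 5 the lowest library was int 3-2.

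Summed markers of B and T cells were also lower in int 3. The 5 B cell markers summed to 23.5 FPKM in int 3-1, 4.44 in int 3-2 and 37.9 in int 3-3, against 131 to 137 in int 2, and all 5 fell. The 6 T cell markers in the table summed to 9.57, 5.39 and 14.3 FPKM, against 20.9 to 22.4, with 2 of 5 tested members lower (Cd3e and Cd2). Cd3d (adjusted p = 0.075 in limma), Cd3g (0.16) and Cd4 (0.43) did not pass, and Cd4 overlapped between the groups. None of these markers was at 0 throughout, and int 3-2 was the lowest library of both sums. Their part in the lower Il2rg, Il7r, Il21r, Il27ra and Il16 values was not tested.

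Of the 9 receptor calls Il13ra1, Il2rg and Il7r passed without each library in turn (highest adjusted p 0.035, 0.039 and 0.033 in limma). The filter, which Il7r, Il27ra and Il1rl1 passed through 1 group alone, was not redone for these runs. Without int 3-1, or without any 1 library of int 2, Il1rl1 (0.086 to 0.089), Il4ra (0.051 to 0.059), Il1r1 (0.065 to 0.075) and Il17ra (0.12 to 0.15) did not pass. Il21r was lost without int 2-1, int 2-2 or int 3-1 (0.055 to 0.056), and Il27ra without int 2-2, int 2-3 or int 3-1 (0.061 to 0.076). Il1r1 was also lost with the replicate block (0.051), and Il17ra with that block (0.072), without a filter (0.069), with TPM (0.051), with quantile scaling (0.055) and with a weight per group (0.052).

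Of the gp130 family's tested receptor chains Il27ra fell, as given above, and Il6st, Il11ra1 and Il6ra did not pass. Il6st, gp130 itself, had 26.4, 31.7 and 21 FPKM in int 3, against 17.5, 17.8 and 18.5 in int 2, with every int 3 library above every int 2 library (log2 change 0.51, SE 0.14, adjusted p = 0.056 in limma). It passed with median-of-ratios scaling (0.035), a weight per group (0.023) and voom on the fragments (0.031), and without int 3-2 (0.037) or int 3-3 (0.0028). Il11ra1, which binds IL-11, had 23, 26.9 and 19.8 FPKM against 26.9, 27.9 and 25.7 (adjusted p = 0.24, and 0.029 without int 3-2). Fragments of Il11ra1 may be shared with its near-identical copy Il11ra2, so its level is uncertain. Il6ra, which binds IL-6, was low at 0.807, 0.957 and 1.04 FPKM against 1.37, 1.19 and 0.858 (adjusted p = 0.43). Of IL-11 and its private receptor chain, only the cytokine passed the test; the difference between them was not tested.

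The receptor chains of IL-10 and IL-22 did not pass. Il10rb, shared by both cytokines, had 24.2, 22.1 and 22.3 FPKM in int 3, against 23.9, 21.7 and 21.9 in int 2 (log2 change 0.02, SE 0.06, adjusted p = 0.84 in limma). The sign of that difference turned with median-of-ratios and quantile scaling. In GENCODE M21 it has 569 exonic bases in common with the locus Gm21970 on the same strand, and Il2rg has 728 with Gm20489. Il22ra1, the epithelial chain of the IL-22 receptor, had 4.42, 3.13 and 5.17 FPKM against 4.57, 4.16 and 4.65 (adjusted p = 0.75). Il10ra, the IL-10 chain of leukocytes, had 2.12, 1.46 and 2.19 FPKM against 2.78, 3.33 and 2.39 (log2 change -0.39, adjusted p = 0.11, and 0.046 without int 3-3). Il17rc, which pairs with Il17ra, had 28, 24.8 and 29.7 FPKM against 27.3, 28.1 and 27.3 and overlapped (adjusted p = 0.95). Its sign turned with TPM. Il17re, the IL-17C receptor chain of epithelium, had 3.88, 3.04 and 4.52 against 4.69, 5.49 and 5.54 (adjusted p = 0.097, and 0.017 without int 3-3). Il3ra had 2.18 to 2.6 FPKM in int 3 against 1.54 to 1.96 in int 2, without overlap, and missed the threshold (adjusted p = 0.052, and 0.042 with TPM and 0.049 without int 3-3). Il15ra, which presents IL-15, had 1.71 to 1.82 FPKM against 1.32 to 1.56 (adjusted p = 0.2).

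**Figure D3:**
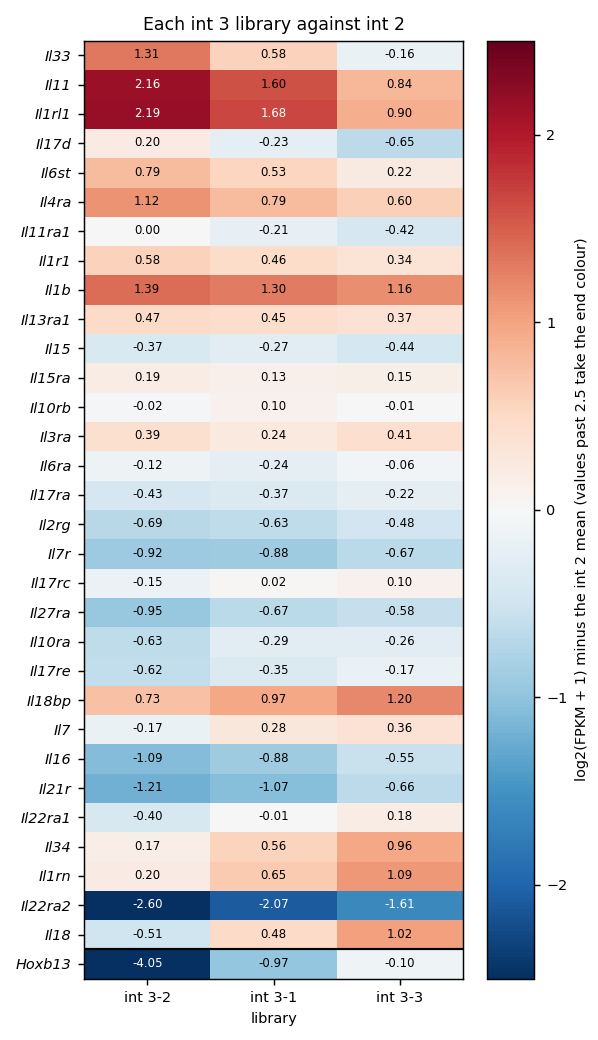
Log2(FPKM + 1) of each int 3 library minus the mean of the 3 int 2 libraries, for the 31 tested interleukin genes ordered by the difference between int 3-2 and int 3-3, with Hoxb13 in the last row. Colour and the printed value give the difference: Il33, Il11 and Il1rl1 at the top are higher in int 3-2 than in int 3-3, Il18, Il22ra2, Il1rn and Il34 at the bottom are lower, and int 3-1 mostly lies between, while Il1b and Il13ra1 are alike in all 3 libraries.

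Of the 31 tested members 26 had int 3-1 between int 3-2 and int 3-3 (83.9%, against 73.5% of all tested genes). That place of int 3-1 was thus common in the whole table and not particular to the interleukins. Whether int 3-1 is independent of the other int 3 libraries is not known and was not tested. The fits and the runs without single libraries treat it as independent. Il33, Il11, Il1rl1, Il6st and Il4ra were highest in int 3-2, where Hoxb13 was 16.4 FPKM. Il18, Il1rn, Il34, Il18bp and Il22ra2 were highest in int 3-3, where Hoxb13 was 267 FPKM. The part of position along the gut in these values was not tested. Il1b, Il13ra1, Il2rg and Il7r differed from int 2 in the same direction and by similar amounts in all 3 int 3 libraries, with log2 differences of 1.16 to 1.39, 0.37 to 0.47, -0.69 to -0.48 and -0.92 to -0.67.

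Of the 54 members under the filter 8 were listed at 0 in all libraries (Il1f10, Il20, Il22b, Il24, Il3, Il31, Il36rn and Il9), and 46 had some fragments. For 15 of the 46 the groups did not overlap, where 15.5% of the genes under the filter did not overlap either. Il6, the gp130 cytokine of the acute phase, had 41, 41 and 21 fragments in int 3-1, int 3-2 and int 3-3, against 0, 3 and 0 in the int 2 libraries. Corrected for depth that is 34.2 times as many, with an exact 95% interval of 11.4 to 169 that covers counting error only. Il22, the cytokine that Il22ra2 binds, had 26, 11 and 48 fragments, against 5, 4 and 0. Every int 3 library was above int 2, and the groups' ratio was 9.42 (4.73 to 21.3, counting error only). Fragments of Il22 may be shared with its near-identical copy Il22b. Il10, the anti-inflammatory cytokine of Tregs and macrophages, had 8, 20 and 11 fragments, against 4, 2 and 7, or 2.99 times as many (1.56 to 6.11, counting error only). For these 3 ligands every int 3 library held more fragments than any int 2 library, at levels of at most 1.06 FPKM in any library.

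**Figure D4:**
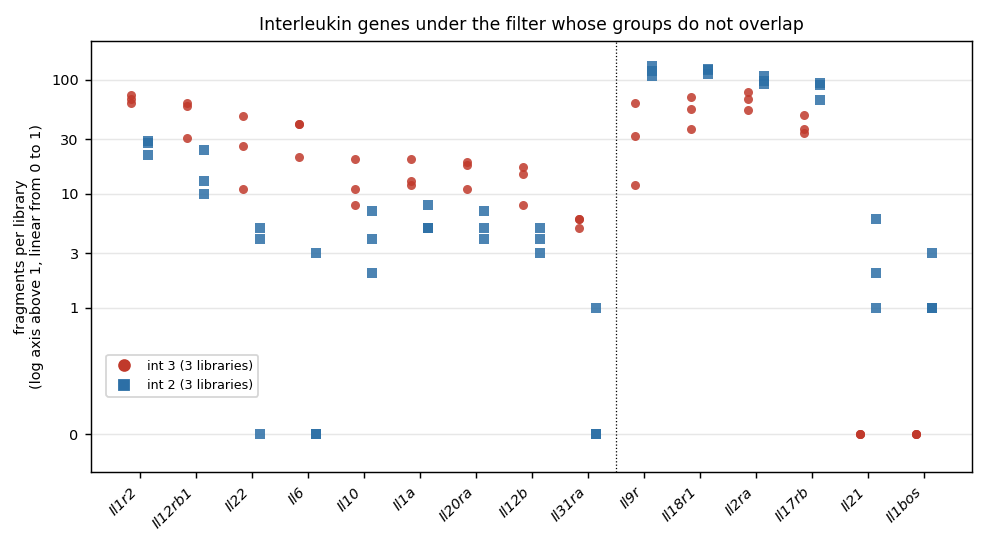
Fragments per library of the 15 members under the filter whose groups do not overlap, with int 3 (circles) left of int 2 (squares) for each gene, and the axis is logarithmic above 1 and linear from 0 to 1. For the 9 genes left of the dotted line every int 3 library is above int 2, and for the 6 right of it every one is below.

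When the fit was run without a filter, 77 members entered, of which 8 rose and 9 fell. Of all genes in that fit 6.72% changed, 3.6% higher and 3.11% lower. Of the 46 members added, 4 passed in limma. The share of calls among all the genes added was not worked out. Il6 (log2 change 0.86, SE 0.13, adjusted p = 0.02) and Il1r2 (0.43, adjusted p = 0.009) rose. Il18r1, the IL-18 receptor chain of T and NK cells, with 55, 37 and 71 fragments in int 3 against 125, 112 and 122 in int 2 (-0.37, adjusted p = 0.028), and Il9r, with 32, 12 and 62 against 131, 107 and 120 (-0.37, adjusted p = 0.034), fell. Il22 (adjusted p = 0.14) and Il10 (0.2) did not pass. Of the other members whose groups did not overlap, Il1a, Il12b, Il12rb1, Il20ra and Il31ra had all int 3 libraries above int 2, and Il2ra, the high-affinity IL-2 receptor chain of Tregs and activated T cells, Il17rb, Il21 and Il1bos had all of them below. Il2ra had 68, 54 and 78 fragments in int 3 and 91, 97 and 107 in int 2 (adjusted p = 0.1). Il1a, the IL-1 alarm cytokine, had 12, 20 and 13 fragments in int 3 and 5, 8 and 5 in int 2 (adjusted p = 0.09).

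Several ligands linked to T helper programs were near the detection limit in both groups. Il17a had 2, 1 and 0 fragments in int 3 and 1, 0 and 1 in int 2, and Il17f 1, 2 and 14 against 1, 2 and 6. Il23a, which with Il12b forms IL-23, had 8, 2 and 1 fragments against 13, 12 and 3, and overlapped. Il2 had 2 fragments in int 2-2 and 0 in the other libraries. Each of these genes overlapped between the groups, and their differences were not resolved with so few fragments.

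Several members are neighbours in the genome, in the order of the RefSeq annotation of GRCm38.p6. Il1r2, Il1r1, Il1rl2, Il1rl1, Il18r1 and Il18rap follow each other on chromosome 1. Il1r1 and Il1rl1 rose, Il1r2 rose and Il18r1, next to Il1rl1, fell in the fit without a filter, and Il1rl2 and Il18rap overlapped between the groups. Il4ra and Il21r are adjacent on chromosome 7, with log2 changes of 0.84 for Il4ra and -0.98 for Il21r.

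Genes that act beside or after the interleukins were read from 3 lists. Among 13 tested partners without an Il symbol 1 rose and 2 fell. Osmr, which pairs with gp130 for oncostatin M and with Il31ra for IL-31, had 5.44, 5.71 and 4.92 FPKM in int 3, against 2.34, 2.66 and 2.47 in int 2 (log2 change 0.86, SE 0.08, adjusted p = 0.0015 in limma). The gp130 ligands Clcf1 (log2 change -0.66, adjusted p = 0.0037) and Ctf1 (-0.42, adjusted p = 0.033) fell, where Clcf1 reached 1 FPKM in int 2 alone and so passed the filter through that group. The list's median was 0.06. Ctf1 was lost without int 3-1, or without any 1 library of int 2.

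Of 22 tested JAK, STAT and SOCS genes and their phosphatases 5 rose and 1 fell, with a median log2 change of 0.06. Socs3, the feedback inhibitor that gp130 cytokines and IL-22 induce through STAT3, had 55.3, 48.3 and 60.2 FPKM in int 3, against 8.97, 8.95 and 9.06 in int 2. The 3 int 3 libraries were alike and far above int 2 (log2 change 2.47, SE 0.08, adjusted p = 8.2e-05 in limma). Stat3 (0.82, adjusted p = 0.0011), Stat2 (0.50, adjusted p = 0.0081) and Jak3 (0.69, adjusted p = 0.0011), the kinase bound to Il2rg, also rose, and Stat2 was lost without int 2-2 or int 2-3 in turn. Ptpn6, a phosphatase of blood cells, fell (-1.13, adjusted p = 0.0029). Stat6, the factor of the IL-4 receptor, had 21.3 to 26.2 and 23.3 to 23.8 FPKM and overlapped.

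Of 18 tested adaptors and processing genes of the IL-1 and IL-17 pathways 9 rose and 2 fell, with a median of 0.30. Nfkbiz, a nuclear cofactor induced by IL-1 and IL-17, had 13.2, 15.4 and 10.3 FPKM in int 3 against 6.01, 5.44 and 5.61 in int 2 (log2 change 1.04, adjusted p = 0.006 in limma). Zc3h12a, the RNase that degrades cytokine mRNAs such as that of Il6, rose by 0.77 (adjusted p = 0.0067). Casp1 (0.30), Casp4 (0.83), Pycard (0.31), Nlrp6 (0.41), Myd88 (0.40), Irak4 (0.30) and Irak3 (0.45) rose as well, and Irak2 (-0.38) and Tab1 (-0.25) fell. The calls from Casp1 to Tab1, in this order, were lost without int 3-1, or without any 1 library of int 2. Nfkbiz and Zc3h12a passed without each library in turn (highest adjusted p 0.041 and 0.042). Myeloid markers moved too: 5 of 7 monocyte and macrophage markers rose and 1 fell, with sums of 324 to 424 FPKM in int 3 and 415 to 419 in int 2. Lyz2, the marker that fell, made up most of each sum, at 234, 197 and 282 FPKM in int 3 against 331, 338 and 335 in int 2. S100a8 and S100a9 of neutrophils stood at 3.86 to 10.5 and 2.23 to 12.7 FPKM in int 3 and at 0 to 0.224 and 0 to 0.0559 in int 2. Of the other genes in the neutrophil list Ly6g had 106, 51.8 and 155 FPKM in int 3 against 38.9, 39.7 and 39.3 in int 2 (adjusted p = 0.07 in limma). Csf3r had 0.569, 0.717 and 0.406 against 0.151, 0.182 and 0.19, and Cxcr2 at most 0.141 in any library. Ly6g did not follow the others: it was lowest in int 3-2, where they were highest, and high in int 2, where they were near 0. Which cells held the Ly6g RNA was not tested. S100a8 and S100a9 passed the filter through int 3 alone. Their part in the values of Il1b, Il1rn and the pathway genes was not tested.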

How the data were processed

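Gene FPKM values were used as deposited by the authors. Per the submitters' processing notes, reads were placed on GRCm39. The aligner, counter, annotation and any use of strand are not given in the sources used here. A gene entered the test if 3 or more libraries reached 1 FPKM, which kept 12525 genes. Values on the log2(FPKM + 1) scale were fitted by limma 3.58.1 (R 4.3.3) with a trended variance, and p-values were adjusted over all of them by Benjamini-Hochberg (threshold 0.05). Fold changes on that scale understate the change of low genes. Whole fragments were recovered from the FPKM steps for 12511 of the 12525 tested genes (relative tolerance 1e-06). Intervals for ratios of fragments are exact at 95% and cover counting error only. Values in every library were given for members that passed, for other tested members with a mean of 5 FPKM or more and for a fixed list of well-known members. Members under the filter whose groups did not overlap were named as not tested, and pathway genes where they passed. Further members and genes given values were chosen after their values were seen. The members, gene lists and motifs were chosen with earlier results of these data known. The main fit was run on simulated data with equal spread in both groups. Its behaviour under the unequal spread of these libraries was not tested. Alternatives were another pseudocount, no filter, a stricter filter, TPM, median-of-ratios and quantile scaling, a replicate block, a weight per group, voom on the fragments and leaving out each library. Promoter sequences and gene order are from RefSeq (GRCm38.p6) and exon overlaps from GENCODE M21. Some genes of the lists are not reported here.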

Additional observations from a re-analysis of the deposited data

How the results depend on the processing

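None of the 15 changed members reversed under any alternative run. With only genes at a mean of 5 FPKM or more, 0 ligands rose and 0 fell, 1 receptor fell, 1 antagonist changed and 496 genes of the whole table fell, since fewer genes were tested. With TPM 1 ligand fell. Leaving out each library in turn gave 1 to 4 ligands higher and 0 to 2 lower, 1 to 6 receptors higher and 2 to 7 lower, 2 to 3 antagonists changed, and 372 to 3124 genes of the whole table higher and 241 to 1789 lower, against 1082 and 839 with all libraries. The count of 4 ligands higher came without int 3-2, and the highest counts of receptors and of the whole table without int 3-3. Signs turned for genes that did not pass. Il10rb had log2 differences of -0.0191 with median-of-ratios scaling, -0.0403 with quantile scaling and -0.0207 with voom, and -0.018 to 0.0645 without each library. Il17rc had 0.0609 with TPM and -0.0636 to 0.0628 without each library. Without each library Il18 had -0.016 to 0.747 and Il22ra1 -0.206 to 0.0829. The causes were not tested.

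No pairing by replicate number was seen: same-numbered libraries deviated from their group means with correlations of -0.0147, 0.00407 and -0.0215. With 3 libraries in each group and unequal spread, such correlations cannot show that the samples are unpaired. With the number as a replicate block 0 ligands fell, and 516 genes rose and 373 fell in the whole table.

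With 3 libraries in each group and far more spread in int 3, calls near the threshold depend on single libraries. Many members under the filter rest on few fragments, though Il1rap, also under it, held 303 to 406 per library.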
